A study of Mus musculus with 6 samples.

Results

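Hepatic stellate cells and the extracellular matrix they help to build were followed here through 38 genes, chosen by function: the fibrillar, basement membrane and type VI collagens, contractile and intermediate filament proteins, metalloproteinases and their inhibitors, lysyl oxidases, transforming growth factor beta (TGF-beta) ligands and receptors with Ctgf, the receptors of platelet-derived growth factor (PDGF), proteoglycans and matrix glycoproteins, and the stellate cell genes Lrat and Reln. All 38 are among the 37074 genes on the array, counted before any filter on signal and including probe annotations without a matched symbol. They are carried by 47 distinct probes. Of them, 34 were bright enough to be tested, among 22355 genes tested in all. The livers came from male mice of 2 genotypes, both fed the control-fat diet (CFD), a standard chow, and the study's methods give an age of 6 to 12 weeks. L1-Tg mice were hemizygous for the transgene B6;D2-Tg(APOE-NPC1L1)20Lqyu/J, which puts human NPC1L1, a cholesterol transporter, under the APOE promoter, and this is a single transgenic line. WT mice were their littermates without the transgene, on the same background of at least 8 generations of backcrossing to C57BL/6J. Each of the 3 samples per genotype was a pool of liver RNA from 2 or 3 mice, labeled with Cy3 and hybridized to its own 1-color array, so that the spread between samples is a spread between pools.

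In a healthy liver, stellate cells lie between the hepatocytes and the sinusoidal endothelium, store retinol as retinyl esters and keep up a sparse matrix in which collagen IV and laminin replace a full basement membrane. When the liver is injured, TGF-beta and PDGF turn them, together with portal fibroblasts, into contractile myofibroblasts. These cells express alpha-smooth muscle actin (Acta2), deposit collagens I and III, crosslink them through lysyl oxidases and slow their breakdown with tissue inhibitors of metalloproteinases. In fatty liver, such activation separates simple steatosis from the fibrotic stages that can follow it.

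All 6 arrays shared 1 slide and 1 scan, and since row 1 of the slide held WT and row 2 held L1-Tg, slide row and genotype cannot be told apart. Between 53.1% and 59.2% of spots were well above background, and no spot was saturated. The array probe for mouse Npc1l1 was well above background on 1 L1-Tg array and 2 WT arrays, and it is annotated to the mouse gene, so it was not used as a check of the human transgene. Values are given as the log2 of an intensity relative to the 75th percentile of its array, so that 0 is the 75th percentile and 1 is a 2-fold difference. Levels of different genes are not compared, because each probe has its own brightness.

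None of the 34 tested genes passed an adjusted p of 0.05 in limma, where 0.139% of all tested genes (31 of 22355) passed. At an unadjusted p under 0.05 there were 4 of them, 3 higher in L1-Tg (Col4a1, Col4a2 and Tgfbr2) and 1 lower (Reln). That is 11.8% of the tested genes, where 8.75% of all genes tested reached this level, 4.93% higher and 3.82% lower. The same 4 genes were also those whose L1-Tg and WT values did not overlap, a share of 11.8% beside 15.5% of all genes tested, 7.81% higher and 7.74% lower. With all 6 arrays, their count was near the background by both measures. With L1-Tg pool 3 left out, 5 of the 34 reached an unadjusted p under 0.05, beside 5.03% of all genes, the fifth being Loxl1 at a difference of -0.45. Scaling to the array median in place of the 75th percentile moved Reln out of both counts and brought Tgfbr1 among the genes without overlap, so that all 4 of these were then higher in L1-Tg. Signals without any scaling kept Reln and lost Tgfbr2 from that count. In these bulk samples, a change in the number of cells of a type and a change in the RNA of each cell cannot be told apart.

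The median difference of the 34 genes, L1-Tg minus WT, was 0.08 on the log2 scale, beside -0.02 over all genes tested, with 23 genes higher and 11 lower. Relative to the WT means, the median over the genes was -0.17, -0.04 and 0.38 in L1-Tg pools 1, 2 and 3 and 0.21, -0.16 and -0.10 in WT pools 1, 2 and 3. Pool 3 of the L1-Tg mice and pool 1 of the WT mice were thus the highest of their groups, and without L1-Tg pool 3 the median difference was -0.12. By the study's own criterion, a difference index (the difference of the group means over the sum of the group SDs, on linear intensities) with a modulus above 0.7, 5 of the 38 genes passed, namely the same 4 and Tgfb1. Of these 4 were higher, where 9.27% of all genes passed upward, and 1 was lower, where 20.4% passed downward. With a change of at least 2-fold required as well, 1 gene was left, Col4a2.

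**Figure D1:**
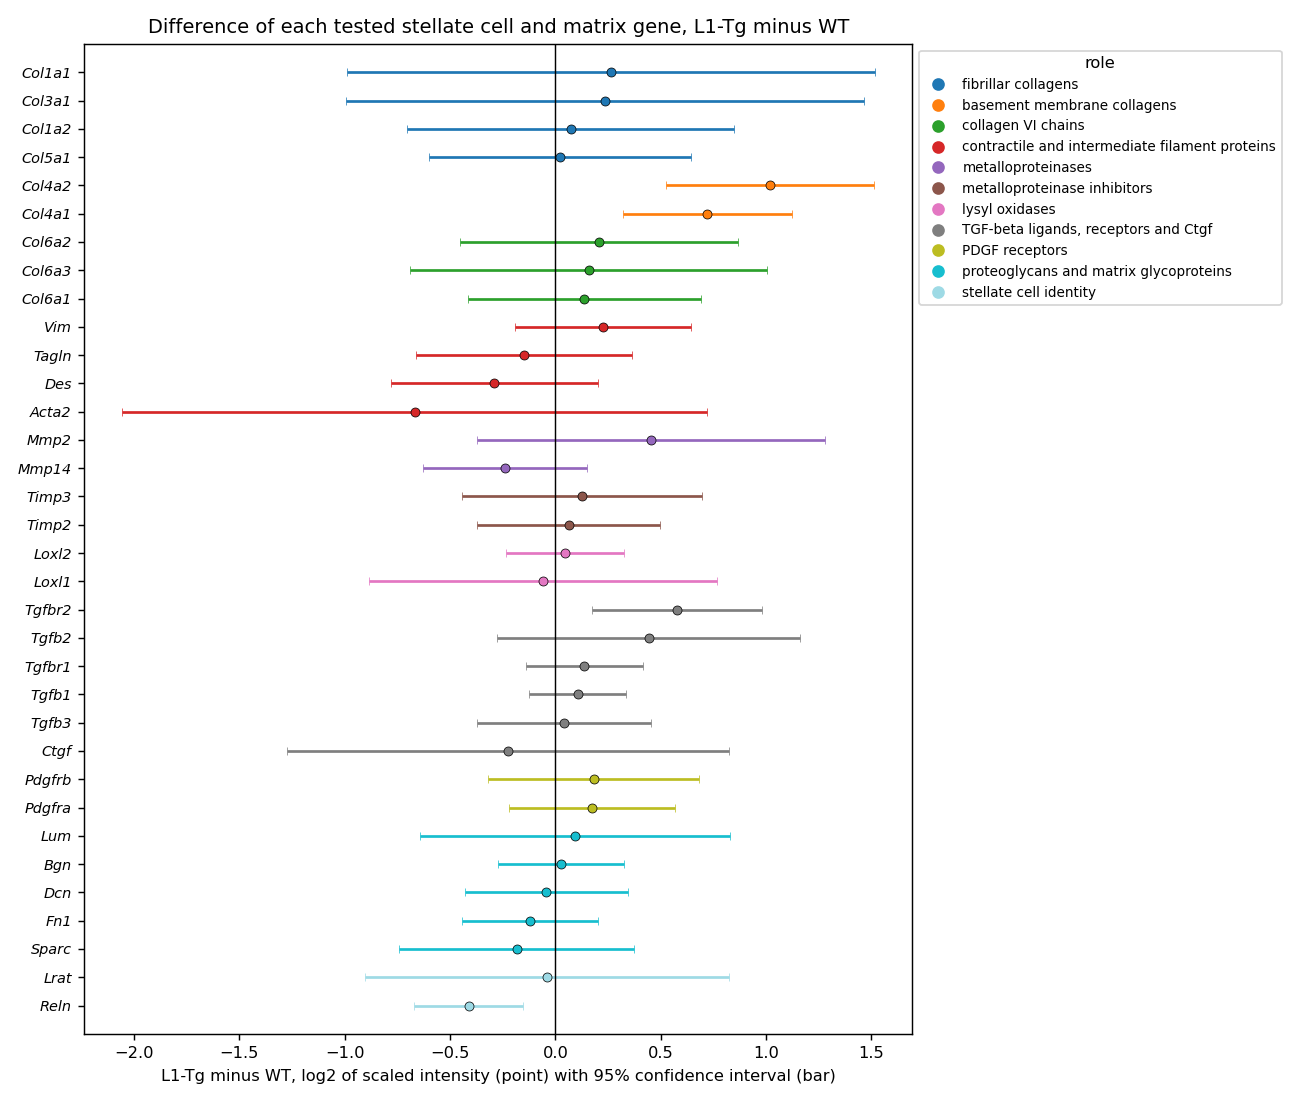
Difference between L1-Tg and WT livers of each of the 34 tested genes, on the log2 scale of the scaled intensity (horizontal axis), grouped and colored by role (vertical axis). Points are the limma estimates over 3 pools per group and bars are 95% confidence intervals. The intervals of Col4a1, Col4a2 and Tgfbr2 lie above 0 and that of Reln below it, and the widest belong to Acta2, Col1a1 and Col3a1.

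The basement membrane collagens showed the clearest separation. Col4a1 and Col4a2 encode the 2 chains that combine into the collagen IV network around sinusoids, vessels and ducts. Col4a2 had values of 1.62, 1.74 and 2.23 in the L1-Tg pools and 1.02, 0.55 and 0.96 in the WT pools. The groups did not overlap, and the lowest L1-Tg value was 1.51-fold the highest WT value. The difference was 1.02 ± 0.20 (SE, n = 3 pools per group), a 2.03-fold level with a 95% confidence interval of 1.44 to 2.85, with an unadjusted p of 0.0021 and an adjusted p of 0.301 in limma. Col4a1 had values of 1.13, 0.81 and 1.32 in the L1-Tg pools and 0.50, 0.15 and 0.44 in the WT pools. Again no values overlapped, and the difference was 0.72 ± 0.17 (SE, n = 3 pools per group), 1.65-fold with an interval of 1.25 to 2.18, with an unadjusted p of 0.0041 and an adjusted p of 0.354 in limma. Under the 16 alternatives in processing and samples, the difference stayed between 0.83 and 1.14 for Col4a2 and between 0.61 and 0.86 for Col4a1. The unadjusted p in limma was under 0.05 in each of them. Adjusted p values ran from 0.195 to 0.722 for Col4a2 and from 0.261 to 0.897 for Col4a1. Not all of the 16 could move the estimates. Dropping or tightening the filter on dim probes, averaging probes and the replicate block left both differences unchanged.

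The 2 genes stand head to head, so the sequence at which both transcripts begin is shown. A start on the opposite strand within 1000 bases is not particular to this pair. It was found for 15.8% of 27025 genes and for 5 of the 25 listed genes whose start was available. In RefSeq (GRCm38.p6), Col4a2 runs along the plus strand from base 11312805 of chromosome 8, and Col4a1 runs along the minus strand from base 11312826, so that the annotated starts are 21 bases apart and the first 22 bases of both transcripts are complementary. This stretch, chr8:11312805-11312826, reads 5′ to 3′ on each gene's own strand as follows, with a GC box (GGGCGG on 1 strand, CCGCCC on the other) in capitals.
Col4a2: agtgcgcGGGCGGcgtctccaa
Col4a1: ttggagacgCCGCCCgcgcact
In the windows from 250 bases before to 50 bases after each start, GGGCGG was found 3 times for Col4a2 and 1 time for Col4a1 on either strand, and 35.7% of 32851 such windows of all genes hold it. The letters CCAAT or ATTGG were found 1 time in each window, as in 37.4% of all windows, and CCCTCCCC or GGGGAGGG 1 time in each, as in 10.8%. The windows of the 2 genes overlap, so a match may be the same bases in both. Such matches are letters in a sequence and not bound sites.

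Other parts of the basement membrane did not share this separation. Of 15 laminins and basement membrane linkers, all tested, 6 were higher and 9 lower, with a median difference of -0.01. The 2 genes with an unadjusted p under 0.05 in limma were both lower in L1-Tg and without overlap. That is 13.3% of the 15 by either measure, where 8.75% of all genes tested reached this p and 15.5% did not overlap. Lamb2, the laminin beta 2 chain, differed by -0.40 ± 0.13 (SE, n = 3, adjusted p = 0.494 in limma), with -1.58, -1.51 and -1.59 in L1-Tg and -0.93, -1.31 and -1.25 in WT. Lamc3, the laminin gamma 3 chain, differed by -1.17 ± 0.43 (SE, n = 3, adjusted p = 0.542 in limma), with -2.76, -2.79 and -2.88 in L1-Tg and -2.54, -0.71 and -1.66 in WT. Most of the Lamc3 difference came from WT pools 2 and 3, while WT pool 1 was within 0.23 of the nearest L1-Tg pool. Agrn, encoding the heparan sulfate proteoglycan agrin, was next by p and differed by 0.23 (adjusted p = 0.61 in limma), with groups that overlapped. Of 22 further collagens, 9 were tested, with 2 higher and 7 lower and none at an unadjusted p under 0.05. Col4a5, which builds a different collagen IV network with other chains, had -3.37, -2.99 and -2.68 in L1-Tg and -1.54, -2.51 and -2.92 in WT, a difference of -0.69 ± 0.37 (SE, n = 3, adjusted p = 0.626 in limma), opposite in sign to that of Col4a1 and Col4a2. Col7a1, of the anchoring fibrils, differed by -0.47 and Col9a1, a collagen of cartilage, by -0.35.

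**Figure D2:**
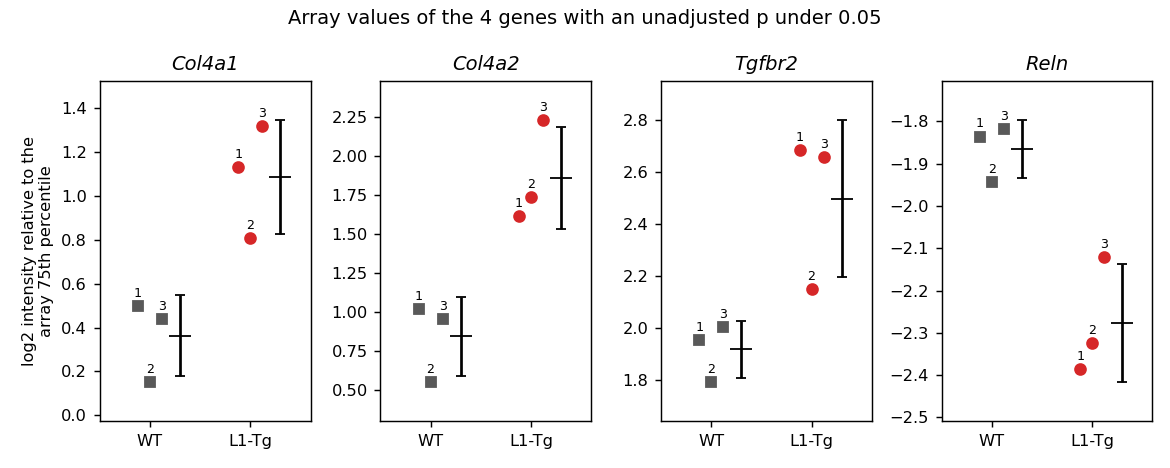
Array values (vertical axes, log2 intensity relative to the 75th percentile of the array) of Col4a1, Col4a2, Tgfbr2 and Reln in the WT pools (gray squares) and L1-Tg pools (red circles), numbered by replicate, with the mean and SD of each group of 3 beside them. The vertical scales differ between panels and do not start at 0. All L1-Tg values of Col4a1, Col4a2 and Tgfbr2 lie above the WT values, and all L1-Tg values of Reln lie below them.

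Among the 6 genes of TGF-beta signaling, 1, Tgfbr2, had groups without overlap and an unadjusted p under 0.05 in limma. That is 16.7% of them by either measure, where 15.5% of all genes tested did not overlap and 8.75% reached this p. Tgfbr2 encodes the type II receptor, which binds the ligand first and then recruits the type I receptor. It had 2.68, 2.15 and 2.66 in L1-Tg and 1.96, 1.79 and 2.0 in WT, so the groups did not overlap, although L1-Tg pool 2 lay close to the WT pools. The difference was 0.58 ± 0.17 (SE, n = 3 pools per group), 1.49-fold with an interval of 1.13 to 1.98, with an unadjusted p of 0.0121 and an adjusted p of 0.47 in limma. A second, dimmer probe for Tgfbr2 had -1.48, -1.72 and -1.40 in L1-Tg and -1.67, -1.76 and -1.73 in WT, a difference of 0.19 with groups that overlapped, and the mean of both probes differed by 0.38. The size of the Tgfbr2 difference therefore depends on which probe is read. Tgfbr1, the type I receptor, differed by 0.14 (95% interval -0.14 to 0.41), and its second, dimmer probe by -0.08.

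The ligands differed less. Tgfb1, the ligand best known for stellate cell activation, had -1.10, -1.24 and -1.08 in L1-Tg and -1.29, -1.28 and -1.18 in WT, a difference of 0.11 with an interval of -0.12 to 0.33. It passed the difference index at 0.712, just over the threshold of 0.7, and its groups overlapped at L1-Tg pool 2 and WT pool 3. Tgfb3 differed by 0.04. Tgfb2 differed by 0.44 (interval -0.28 to 1.16) and was well above background on 3 L1-Tg arrays and 2 WT arrays. Ctgf, a matricellular protein induced by TGF-beta, had 0.36, 0.73 and 0.48 in L1-Tg and 0.76, -0.18 and 1.66 in WT, so that the L1-Tg pools lay inside the wide range of the WT pools. Its difference was -0.22, and 0.23 without WT pool 3.

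Of 25 further genes of TGF-beta and SMAD signaling, 21 were tested, 10 were higher and 11 lower, and the median difference was -0.01. Of these 21, 4.76% did not overlap and 4.76% had an unadjusted p under 0.05 in limma, beside 15.5% and 8.75% of all genes tested. Smad7, the inhibitory SMAD that TGF-beta itself induces, had the smallest p of them and was the only one without overlap, with 0.31, 0.27 and 0.48 in L1-Tg and -0.03, -0.11 and 0.22 in WT. It differed by 0.33 ± 0.12 (SE, n = 3, unadjusted p = 0.036 and adjusted p = 0.548 in limma). The latent TGF-beta binding proteins that followed by p went opposite ways, with Ltbp4 at -0.28 and Ltbp1 at 0.45, and the groups of both overlapped.

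The PDGF receptors mark stellate cells and fibroblasts and drive their growth and migration. Pdgfra had -1.58, -1.44 and -1.25 in L1-Tg and -1.79, -1.70 and -1.30 in WT, a difference of 0.17 with an interval of -0.22 to 0.57. Pdgfrb had -0.91, -0.70 and -0.23 in L1-Tg and -0.53, -0.92 and -0.93 in WT, a difference of 0.18 with an interval of -0.32 to 0.68. Both pairs of groups overlapped. Of the 3 tested ligands, Pdgfc had values of -0.84, -1.31 and -0.96 in L1-Tg and -1.59, -1.41 and -1.34 in WT. It differed by 0.41 ± 0.15 (SE, n = 3, unadjusted p = 0.0325 and adjusted p = 0.542 in limma) without overlap, the nearest pools being 0.03 apart. Pdgfa differed by 0.28 and Pdgfb by -0.24, and both overlapped.

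Of the 2 genes that identify stellate cells, Reln was lower in L1-Tg livers and Lrat was not separated between the genotypes. Reln encodes reelin, a secreted glycoprotein that stellate cells make in the liver, and it had -2.39, -2.32 and -2.12 in L1-Tg and -1.84, -1.94 and -1.82 in WT. All L1-Tg pools lay below all WT pools, with the narrowest gap 0.18 wide, between L1-Tg pool 3 and WT pool 2. The difference was -0.41 ± 0.11 (SE, n = 3 pools per group), so that WT was 1.33-fold L1-Tg, with an unadjusted p of 0.0077 and an adjusted p of 0.433 in limma. Under the 16 alternatives the difference lay between -0.49 and -0.27, with an unadjusted p under 0.05 in 14 of them. The filter settings, averaging probes and the replicate block left the Reln difference unchanged. Lrat encodes lecithin retinol acyltransferase, which makes the stored retinyl esters. It had -0.34, -0.42 and -0.46 in L1-Tg and -0.88, -0.74 and 0.51 in WT, and its difference of -0.04 turned to 0.07 with array median scaling, to 0.0054 without scaling and to 0.40 without WT pool 3.

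Over the 16 genes listed as stellate cell markers, which share Reln, Lrat and Des with the 38 genes, 15 were tested, 3 were higher and 12 lower, with a median difference of -0.04. Their summed linear signal, in units of the 75th percentile, ranged from 96.3 to 122 in L1-Tg pools and from 107 to 141 in WT pools. Gfap, a classical stellate cell marker, was not well above background on any array. Hgf, the hepatocyte growth factor that stellate cells secrete, had groups without overlap at a difference of 0.13 (adjusted p = 0.687 in limma).

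**Figure D3:**
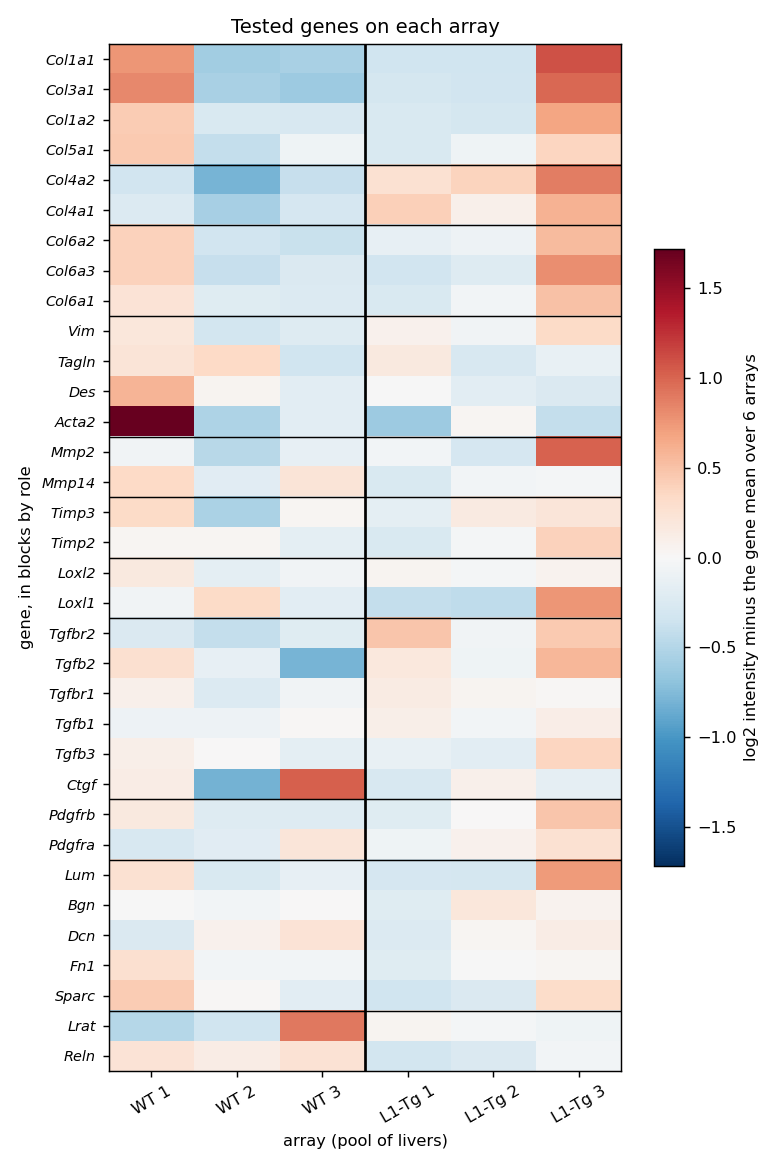
Level of each of the 34 tested genes (rows, in blocks by role) on each of the 6 arrays (columns, WT on the left and L1-Tg on the right), as the log2 intensity minus the mean of the gene over the 6 arrays, from blue (below) through white to red (above). The collagen I, III, V and VI rows are red on WT 1 and L1-Tg 3, the Col4a1 and Col4a2 rows are red on the L1-Tg arrays, and Acta2 is darkest on WT 1.

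The fibrillar collagens, the load-bearing fibers of a scar, varied more within each genotype than between them. Col1a1 had 0.35, 0.35 and 1.79 in L1-Tg and 1.45, 0.10 and 0.15 in WT. One pool of each genotype was high, and the other 4 pools lay within 0.25 of each other. The difference was 0.26 with an interval of -0.99 to 1.52, from 0.503-fold to 2.86-fold, so that true differences within these bounds remain compatible with the values. Col3a1 had 1.03, 1.01 and 2.31 in L1-Tg and 2.16, 0.77 and 0.72 in WT, a difference of 0.23 with an interval of -1.0 to 1.47. Col1a2 differed by 0.07, with 2.42, 2.37 and 3.35 against 3.11, 2.42 and 2.40. Col5a1, which regulates fiber diameter, differed by 0.02, with -0.01 under the normexp background correction. Col5a2 was well above background on 2 L1-Tg arrays and no WT array and was not tested.

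Collagen VI forms beaded filaments near cell surfaces, and its 3 chains followed the same arrays. Col6a3 had -0.70, -0.60 and 0.42 in L1-Tg and 0.03, -0.77 and -0.62 in WT, a difference of 0.16. Col6a2 differed by 0.20, with -2.03, -1.98 and -1.35 against -1.49, -2.22 and -2.27. Col6a1 differed by 0.14, with 0.74, 0.95 and 1.5 against 1.22, 0.79 and 0.77. The 95% intervals of all 3 chains spanned 0.

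L1-Tg pool 3 and WT pool 1 were the 2 highest arrays for 16 of the 34 tested genes (47.1%), including all 4 tested fibrillar collagens and all 3 collagen VI chains, where the same held for 11.3% of all genes tested. The other 9 of these genes were Vim, Timp3, Loxl2, Tgfb2, Tgfb3, Pdgfrb, Lum, Fn1 and Sparc. Col4a1, Col4a2 and Tgfbr2 were not among them, because WT pool 1 stayed below all L1-Tg pools for these 3. This pattern was noticed in the values and is given as a description of the 6 arrays. The cholangiocyte keratins shared it, with Krt19 at -2.26, -2.61 and -1.52 in L1-Tg and -0.97, -2.16 and -2.15 in WT, and Krt7 at -4.25, -3.82 and -3.01 in L1-Tg and -2.53, -3.63 and -3.86 in WT. The Krt7 probe was well above background on 3 WT arrays and 2 L1-Tg arrays, so it was tested only through the WT group. Of 6 cholangiocyte markers 4 were tested, and 3 of these 4 had the pattern, where 11.3% of all genes tested did. Sox9 did not, with -1.93, -1.23 and -1.83 in L1-Tg and -1.58, -1.98 and -1.73 in WT. The summed signal of the 4 was 1.27, 1.54 and 1.73 in L1-Tg and 1.98, 1.32 and 1.5 in WT. The pattern held for 3 of the 7 tested portal fibroblast genes (42.9%). Of the 15 tested stellate cell markers, 2 had it (13.3%), near the share over all genes. Ducts and portal fibroblasts lie together in portal tracts, but the part of portal tissue in these values was not tested.

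When both of these pools were left out, Col4a1, Col4a2 and Reln still had an unadjusted p under 0.05, with differences of 0.67, 0.92 and -0.47, while Tgfbr2 differed by 0.52 and did not. The median difference of the 34 genes was then 0.05. With 2 pools left per group, 16 of the 34 genes (11 higher) did not overlap, where 34.7% of all genes tested did not, and none of them passed an adjusted p of 0.05 in limma.

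The contractile proteins that define myofibroblasts were not higher in L1-Tg livers. Acta2 had -1.24, -0.59 and -1.03 in L1-Tg and 1.09, -1.14 and -0.81 in WT. WT pool 1 stood far above the other 5 pools, and the difference of -0.67 (interval -2.06 to 0.72) became 0.02 without it. On the same WT array, the vascular smooth muscle genes Cnn1, at -0.46 beside -4.02 and -3.45 in the other WT pools, and Myh11, at -2.64 beside -4.15 and -3.98, were also highest. Cnn1 and Myh11 were well above background on 3 WT arrays and 1 L1-Tg array, so they were tested only through the group in which they were higher. The summed signal of the 4 tested smooth muscle genes, 1 of them Des, was 2.17 to 2.38 in L1-Tg and 2.20 to 3.40 in WT, and Lmod1 was not well above background on any array. The part of vessel wall RNA in the Acta2 values was not tested.

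Tagln, the actin-binding transgelin, had 3.68, 3.24 and 3.39 in L1-Tg and 3.74, 3.85 and 3.17 in WT, a difference of -0.15. Des, the intermediate filament of stellate and muscle cells, differed by -0.29 (interval -0.78 to 0.20), again with its highest value in WT pool 1. Vim, the vimentin of mesenchymal cells, had 2.04, 1.91 and 2.29 in L1-Tg and 2.16, 1.65 and 1.75 in WT, a difference of 0.23 with an interval of -0.19 to 0.64. The groups overlapped for all 3 genes.

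Among the enzymes that remodel the matrix and their inhibitors, no member had an unadjusted p under 0.05. Mmp2, the gelatinase that cleaves collagen IV, had -2.19, -2.44 and -1.13 in L1-Tg and -2.20, -2.63 and -2.29 in WT. Its difference of 0.45 was carried by L1-Tg pool 3 and was 0.06 without it. Mmp14, the membrane-bound activator of Mmp2, had -0.69, -0.47 and -0.46 in L1-Tg and -0.08, -0.61 and -0.20 in WT, a difference of -0.24. Mmp13, the main interstitial collagenase of mice, was well above background on 2 L1-Tg arrays and no WT array. It had -3.95, -5.11 and -3.63 in L1-Tg and -5.87, -5.75 and -4.00 in WT. The L1-Tg mean of -4.23, which includes the low pool 2, did not exceed the WT mean with values raised to the detection limit. For this reason no fold is given.

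Timp1, the inhibitor most often followed in fibrosis, was well above background on 2 L1-Tg arrays and 1 WT array, with -2.94, -4.17 and -2.40 in L1-Tg and -3.73, -3.52 and -4.89 in WT, and was too dim to be tested. Timp2 differed by 0.06, with 0.27 on a dimmer second probe, and Timp3, which binds to the matrix, by 0.13, and both pairs of groups overlapped. Lox, the founding lysyl oxidase, was not well above background on any of the 6 arrays with either of its 2 probes. Loxl1 differed by -0.06, with 0.05 after array median scaling, 0.04 under the normexp background correction and 0.0084 as the mean of its probes. Loxl2 differed by 0.05, and its other 2 probes, both dimmer, by -0.05 and 0.31. The low signals of Timp1, Mmp13, Col5a2 and Lox leave differences in these genes below what the arrays could measure.

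The groups overlapped for all the listed proteoglycans and glycoproteins, with estimated differences from -0.18 to 0.09. The intervals of Sparc (-0.74 to 0.37), Lum (-0.64 to 0.83) and Dcn (-0.43 to 0.35) were wide, so equal levels were not shown. Sparc, which binds collagen and is made by stellate and endothelial cells, had 5.78, 5.88 and 6.44 in L1-Tg and 6.56, 6.15 and 5.94 in WT, a difference of -0.18. Fn1, the fibronectin that hepatocytes also secrete into plasma, had 7.47, 7.69 and 7.72 in L1-Tg and 7.97, 7.64 and 7.64 in WT, a difference of -0.12 with an interval of -0.44 to 0.20. Lum, the lumican that spaces collagen fibrils, differed by 0.09, with its highest values in L1-Tg pool 3 (2.04) and WT pool 1 (1.57). Bgn, encoding biglycan, differed by 0.03 with an interval of -0.27 to 0.33. Dcn, encoding decorin, which binds TGF-beta, differed by -0.04, with 0.02 after quantile normalization, 0.07 after array median scaling and 0.00050 without scaling.

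Matrix genes outside the 38 gave a similar picture. Of 25 elastic fiber and matricellular genes, 19 were tested, 12 were higher and 7 lower, with a median of 0.08 and none at an unadjusted p under 0.05. Spp1, the osteopontin that rises in steatohepatitis, had -0.05, -0.30 and 0.60 in L1-Tg and -0.49, -0.65 and -0.21 in WT, a difference of 0.53 ± 0.25 (SE, n = 3, adjusted p = 0.596 in limma). L1-Tg pool 2 and WT pool 3 overlapped for this gene. Wisp1, a CCN family member, differed by 0.38 and Fbn1, the fibrillin of microfibrils, by 0.34, and both overlapped.

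Of 18 collagen processing enzymes, 15 were tested, with 6 higher, 9 lower and a median of -0.01. Bmp1, the procollagen C-proteinase, had 4.71, 4.98 and 4.63 in L1-Tg and 5.21, 5.20 and 5.08 in WT, without overlap, and differed by -0.39 ± 0.12 (SE, n = 3, unadjusted p = 0.0161 and adjusted p = 0.487 in limma). P4ha1, a subunit of the collagen prolyl hydroxylase, differed by 0.35 and Pcolce2, an enhancer of the C-proteinase, by 0.21, with overlapping groups. Of 18 genes of matrix degradation, 11 were tested, with 6 higher, 5 lower and a median of 0.19. Mmp19 did not overlap at a difference of 0.19, while Mmp23 at 0.40 and Adam12 at -0.18 did.

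**Figure D4:**
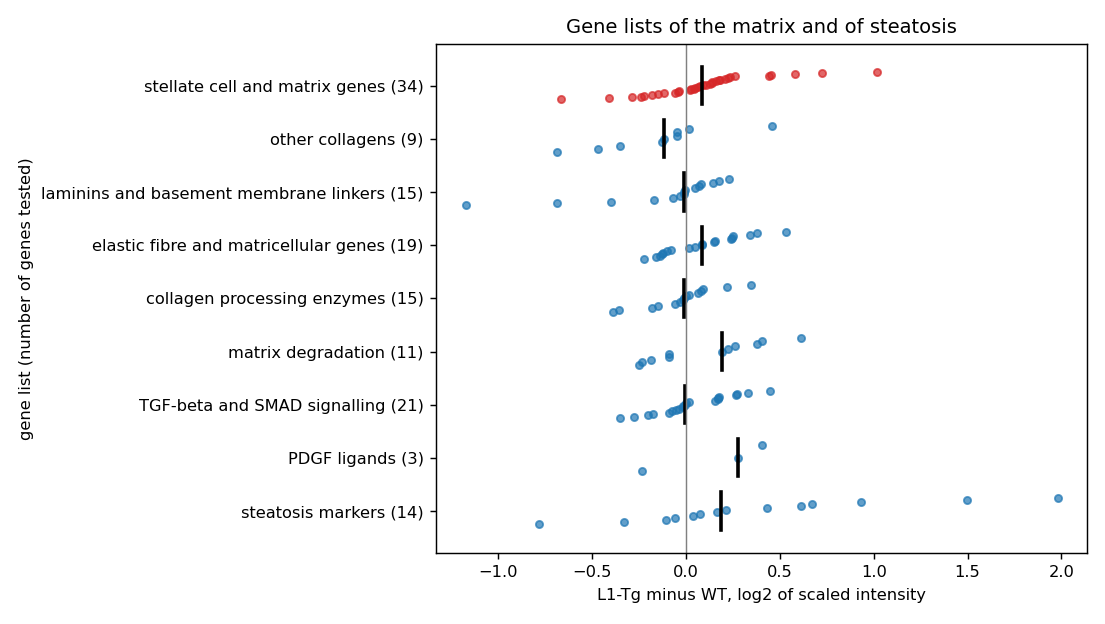
Differences between L1-Tg and WT livers on the log2 scale (horizontal axis) of the tested genes of each list (vertical axis, number of tested genes in parentheses). Each point is a gene and the black line is the median of the list, 0.08 for the 34 stellate cell and matrix genes (red) and between -0.12 and 0.28 for the other lists (blue). The genes farthest to the right belong to the steatosis markers.

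Steatosis markers were set beside the matrix genes, since the study asked how human NPC1L1 in the mouse liver relates to fat accumulation. In L1-Tg mice the study saw steatosis on a high-fat diet, whereas the livers measured here came from mice on the CFD. Its own category analysis of these arrays reported no significant difference for triglyceride metabolism or lipid homeostasis. Of 15 such genes 14 were tested, 10 were higher and 4 lower, with a median of 0.19, and none passed an adjusted p of 0.05 in limma. The 3 with the smallest p had an unadjusted p under 0.05, all higher, and did not overlap. That is 21.4% of the tested genes of the list by either measure. Of all genes tested, 8.75% reached this p and 15.5% did not overlap. The list was chosen with earlier results of these data known, so its share is a description and not evidence of an excess. The differences of the 14 genes ranged from -0.78 to 1.98. Fitm1, which promotes lipid droplet formation, had 1.44, 1.25 and 1.92 in L1-Tg and -1.06, -0.17 and -0.08 in WT, a difference of 1.98 ± 0.30 (SE, n = 3, adjusted p = 0.178 in limma). Pparg, the nuclear receptor of lipid storage, differed by 0.93 ± 0.19 (SE, n = 3, adjusted p = 0.303 in limma) and Cd36, the fatty acid transporter, by 1.5 ± 0.35 (SE, n = 3, adjusted p = 0.372 in limma). The differences of Fitm1 and Cd36 were larger than that of any of the 34 matrix genes, although the difference between the lists was not tested.

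Markers of other cell types that make or border the matrix were read from the same fit. Of 9 portal fibroblast genes 7 were tested, 4 higher and 3 lower. Their summed signal was 4.48 to 7.16 in L1-Tg and 3.30 to 4.78 in WT, ranges that overlapped. The sum includes Entpd2 and was not taken without it. Entpd2, an ectonucleotidase of portal fibroblasts, had 1.25, 0.89 and 1.56 in L1-Tg and 0.30, 0.20 and 0.35 in WT, without overlap and with a difference of 0.95 ± 0.18 (SE, n = 3, unadjusted p = 0.0014 and adjusted p = 0.259 in limma). Cd34 at 0.63 and Eln at -0.16 followed by p, and the groups of both overlapped. Slit2 of the same list was not well above background on any array. Sinusoidal endothelial markers, of which 9 of 9 were tested, were higher for 8 and lower for 1 with a median of 0.07, and their summed signal was 123 to 126 in L1-Tg and 115 to 127 in WT. The 7 Kupffer cell markers were all higher, with a median of 0.31 and overlapping summed signals of 165 to 194 in L1-Tg and 104 to 192 in WT. The part of these cell types in the Col4a1, Col4a2 and Tgfbr2 differences was not tested.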

How the data were processed

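Liver RNA of 3 L1-Tg and 3 WT pools was measured on Agilent 1-color arrays of 62976 spots. Images were quantified by the authors in Agilent Feature Extraction, version 10.10.1.1. Its deposited processed signal is a linear intensity from which background was subtracted within each array, with no scaling across arrays. The deposited matrix holds the same intensities multiplied by 1 factor per array. Each deposited file also holds marks for non-uniform spots, for saturation and for signals well above background, and its annotation uses mm9. Of 28685 probes named by a RefSeq accession, 27229 were matched to a symbol through RefSeq (GRCm38.p6).

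Control spots and non-uniform spots were left out, repeated spots averaged, and the log2 signal taken minus the 75th percentile of the array. A probe was kept where every array of 1 group or both was well above background, and a gene was read from its brightest kept probe. Of the 34 tested genes, Tgfb2 passed through the L1-Tg group alone, and other lists also hold genes that passed through 1 group, so counts of higher and lower genes in a list are descriptions. Groups were compared with limma 3.58.1 in R 4.3.3 (lmFit, eBayes, two-sided), with the Benjamini-Hochberg adjustment over all 22355 genes and a threshold of 0.05, and files were read with data.table (version 1.17.8) and jsonlite 2.0.0. The steps were tested on simulated data. The difference index was computed without the filter. Precision is limited by the number of arrays. The p-values set each difference against the spread between pools, moderated over all genes, and not against the spread between mice.

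The alternatives were quantile, array median and no scaling, normexp correction (offset 50) of the median signals, the deposited matrix, no filter, a filter requiring 6 bright arrays, averaging over the probes of a gene, the replicate number as a block, each array left out, and for the index a modulus above 1 and the dim filter. Leaving out 2 arrays together and the 2-fold limit on the index were added after seeing the data. The same-numbered pools deviated together with correlations of -0.16, 0.11 and 0.02 over genes, and nothing in the labels says that they are paired, so no block was used.

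The genes and lists were chosen with earlier results of these data known. Beyond the 38 genes, the text names from each matrix, signaling or steatosis list the 3 tested genes with the smallest p, and some of the same kind from the cell type lists (stellate, portal fibroblast, smooth muscle, cholangiocyte, endothelial and Kupffer cells), with the markers of these lists that no array measured well above background. Mesothelial, hepatocyte, erythroid, adipocyte and pancreatic lists were read as well.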

Additional observations from a re-analysis of the deposited data

How the results depend on the processing

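No alternative brought any of the 38 genes past an adjusted p of 0.05 in limma. The number of them at an unadjusted p under 0.05 lay between 3 and 5, of 33 to 38 genes tested. The share of all genes at this level ran from 5.03% (without L1-Tg pool 3, with 5 of 34 genes) to 12.4% (without WT pool 3, with 5 of 34 genes). With the replicate block the number of the 34 tested genes at an unadjusted p under 0.05 was again 4. The number of all genes past the adjusted threshold was 11 in place of 31. With a single array left out, 6 to 12 of the 34 to 36 tested genes did not overlap, beside 20.9% to 31.5% of all genes tested. The count was 8 of 36 without L1-Tg pool 2 (26.6% of all genes) and 7 of 34 without L1-Tg pool 3 (20.9%). It was 12 of 34 without WT pool 1 (27.5%) and 9 of 34 without WT pool 3 (31.5%). Of the 38 genes, 7 to 12 passed the difference index, beside 33.1% to 40.4% of all genes. The median difference lay between -0.12 (without L1-Tg pool 3) and 0.21. Without L1-Tg pool 3 and WT pool 1 together, chosen after seeing the data, 16 of 34 tested genes did not overlap, beside 34.7% of all genes. The index was passed by 16 of 38, beside 40.2% of all genes. The index with a change of at least 2-fold left 1 gene. Array median scaling moved the median of all genes from -0.02 to 0.09 and that of the 34 genes from 0.08 to 0.19.

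The 4 genes named above kept their sign under every alternative, as did 10 of the other 30 tested genes, and the other 20 did not. With a single array left out, the difference ranged from -0.21 to 0.70 for Col1a1, from -0.25 to 0.31 for Col1a2, from -0.20 to 0.71 for Col3a1, from -0.18 to 0.25 for Col5a1, from -0.083 to 0.30 for Col6a1, from -0.011 to 0.46 for Col6a2, from -0.20 to 0.40 for Col6a3, from -1.10 to 0.022 for Acta2, from -0.12 to 0.21 for Timp2, from -0.11 to 0.32 for Timp3, from -0.45 to 0.14 for Loxl1, from -0.030 to 0.14 for Loxl2, from -0.13 to 0.14 for Tgfb3, from -0.69 to 0.23 for Ctgf, from -0.013 to 0.33 for Pdgfrb, from -0.25 to 0.26 for Lum, from -0.17 to 0.063 for Dcn, from -0.059 to 0.14 for Bgn, from -0.29 to 0.40 for Lrat, from -0.69 to 0.052 for Krt7 and from -0.68 to 0.022 for Krt19. Without L1-Tg pool 3 and WT pool 1 together it was -0.014 for Col1a2, 0.061 for Acta2, -0.085 for Timp2, -0.069 for Tgfb3, -0.010 for Pdgfra and -0.096 for Lum. Array median scaling gave 0.048 for Loxl1, 0.065 for Dcn and 0.070 for Lrat, no scaling 0.00050 for Dcn and 0.0054 for Lrat, quantile normalization 0.021 for Dcn, the normexp correction -0.013 for Col5a1 and 0.043 for Loxl1, and the mean of the probes 0.0084 for Loxl1. The number of arrays limits these values, and Col5a2, Mmp13, Timp1 and Lox were tested only where the filter on dim probes was dropped or, for some of them, an array was left out.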

Other observations

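Lists of other cell types were read in the same fit. Of 8 hepatocyte genes, all tested, 1 was higher and 7 lower in L1-Tg livers, with a median difference of -0.14. Of 6 mesothelial genes, 3 were tested. Msln, bright on all 6 arrays, differed by -0.08, while Wt1 and Gpm6a, which had higher L1-Tg means, were well above background on 3 L1-Tg arrays and 2 WT arrays and were tested only through the L1-Tg group. Upk1b was not well above background on any array. Of 5 erythroid genes, 3 were tested, with differences of 0.26 to 0.30. Their summed signal was 223 in L1-Tg pool 2 and 109 to 126 in the other 5 pools. In L1-Tg pool 2 Hba-a1 was highest, at 7.60. Alas2 was 4.84 there and 4.94 in L1-Tg pool 3, and Slc4a1 was -1.04 there and -1.09 in WT pool 1. The only tested adipocyte gene, Cfd, had -3.31, 0.96 and -3.83 in L1-Tg and 1.51, -3.69 and -0.93 in WT, a difference of -1.02 with a 95% interval of -5.08 to 3.04, and Lep was not well above background on any array. The 3 tested pancreatic acinar genes were high in L1-Tg pool 2 alone, with a summed signal of 24.8 beside 2.67 to 2.94 in the other 5 pools, and 1 of them, Cela1, was well above background on 3 L1-Tg arrays and 1 WT array and so was tested only through the L1-Tg group. None of these genes passed an adjusted p of 0.05 in limma, and 2 of them, both hepatocyte genes, had an unadjusted p under 0.05. Their part in the matrix values was not tested.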
